A study of Sus scrofa with 6 samples.

Results

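Ribosomal protein genes are the subject here: the rows of 6 liver expression tables whose identifier maps to a symbol of the cytosolic ribosome (RPL or RPS with a number, RPLP0, RPLP1, RPLP2 or RPSA). Of 26733 rows, 25 fitted the symbol rule. The 24 with 1 FPKM (fragments per length of transcript and sequencing depth) or more in at least 3 libraries were kept, 9 of the large and 15 of the small subunit. The other row, RPL10L, was listed at 0 in all 6 libraries. The livers came from newborn Landrace x Yorkshire piglets whose mothers differed in how tryptophan was spread over the day. High-Low sows ate 0.39% tryptophan in the morning meal and 0.13% in the afternoon meal, while 2×Trp sows ate 0.26% at each of those meals. Each group had 3 libraries, and the labels do not say whether these came from separate animals or litters. The p-values therefore cover no more than the variation among these 6 samples, and that variation may be technical.

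The ribosome is the particle that translates messenger RNA, built from a small subunit that reads the code and a large subunit that joins amino acids. Each ribosomal protein, with the exception of the acidic stalk proteins, occurs as a single copy per ribosome, and their genes lie scattered over the genome. Their mRNAs start with a run of pyrimidines, the 5′ terminal oligopyrimidine tract, through which mTOR signalling adjusts their translation to the amino acid supply. In liver, ribosomes are abundant because hepatocytes export large amounts of plasma protein. RNA sequencing measures the level of these mRNAs and not how often they are translated.

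The 24 genes lay on 11 chromosomes of the susScr3 pig assembly, with 5 on chromosome 6 and 4 each on chromosomes 1 and 2. The rows give whole genes without exons. RPS21 stood at 69172955 to 69173861 on the plus strand of chromosome 17, RPS9 at 53292339 to 53298246 on the plus strand of chromosome 6, and RPL5 at 135982737 to 135990562 on the minus strand of chromosome 4. RPS4X was the only X-linked member, at 65859101 to 65864948 on the minus strand. The name table holds 54 symbols that fit the rule, and 29 of them have no row under that name in the files. The set is thus 23 of 79 canonical proteins (14 of 32 of the small and 9 of 47 of the large subunit) plus the paralog RPS27L, and nothing here describes the ribosomal proteins without a named row.

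The libraries' FPKM totals ran from 956426 to 1230288, and read depth is unknown because such values keep no counts. Markers of liver were high. ALB, the main plasma protein, had 17650 ± 3549 FPKM in High-Low and 12020 ± 2996 FPKM in 2×Trp livers (SD, n = 3 each). APOC3, an apolipoprotein, had 51760 ± 19315 FPKM in High-Low and 56539 ± 6371 FPKM in 2×Trp livers. AHSG was listed at 0 in every library. Of 15 hepatocyte marker rows tested, 7 had a positive and 8 a negative log2 fold change of High-Low over 2×Trp (median -0.060). Most markers of red blood cells, vessels and macrophages had lower values in High-Low libraries, and no marker of any cell type list passed the threshold in limma. The summed FPKM of 12 erythroid rows was 1821 to 7202 in High-Low and 6177 to 15896 in 2×Trp livers, and 12 of 12 endothelial and 4 of 5 macrophage rows tested had a negative fold change of High-Low over 2×Trp. At an unadjusted p under 0.05 in limma, 4 of 5 macrophage, 2 of 6 erythroid and 1 of 12 endothelial rows were lower in High-Low. The share over all genes tested was 3.16%. The groups did not overlap for 2 macrophage, 1 erythroid and 3 endothelial rows, beside 7.18% of all genes. For hepatocyte and for neutrophil markers, 1 row each did not overlap and 0 rows had such a p. Neutrophil and granulocyte precursor markers were positive in 7 of 7 rows tested, and their sum was 42.8, 184 and 52.9 FPKM in High-Low and 39.6, 45.7 and 60.5 FPKM in 2×Trp livers, so that High-Low 2 stood apart. Ribosomal protein mRNAs are made in every cell type of the tissue, and in bulk RNA fewer cells of a type and less RNA per cell cannot be told apart. The part of these cells in the values below was not tested.

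Ribosomal protein mRNAs were among those of highest FPKM in the liver, a rank that rests on the listed lengths, with a median of 222 bases over the members and 693 bases over all genes tested. The 24 genes together made up 5.13%, 5.69% and 6.35% of the FPKM total in High-Low 1, 2 and 3, against 6.48%, 5.10% and 5.49% in 2×Trp 1, 2 and 3. The groups overlapped, with means of 5.72 ± 0.611% in High-Low and 5.69 ± 0.713% in 2×Trp livers (SD, n = 3 each). The median level over the 24 genes was 1819 FPKM, beside 6.85 FPKM over the 10901 genes that passed the same filter and were tested. Of the 100 rows with the highest mean, 11 were ribosomal protein genes, and 23 of the 24 were among the top 500.

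At the top stood RPS21, a protein of the small subunit, with 9786, 11133 and 9634 FPKM in High-Low and 12170, 10990 and 10601 FPKM in 2×Trp livers. Its lowest value lay above the highest value of any other member. RPS28, which sits near the path of the mRNA as it leaves the small subunit, had 4957, 7691 and 5260 FPKM in High-Low and 6865, 6184 and 6043 FPKM in 2×Trp livers. High-Low 2 was thus the highest of the 6 libraries for RPS28 and High-Low 1 the lowest. RPLP1 and RPLP2 form the acidic stalk of the large subunit, which recruits the elongation factors. RPLP1 had 5841, 5917 and 5064 FPKM in High-Low and 5736, 5067 and 5314 FPKM in 2×Trp livers. RPLP2 had 3420, 4901 and 3331 FPKM in High-Low and 4304, 4109 and 3789 FPKM in 2×Trp livers. The stalk partners differed in their spread: the highest library was 1.17 times the lowest for RPLP1 and 1.47 times for RPLP2, and High-Low 2 was highest for each.

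RPS3, which lines the entry of the mRNA channel and also takes part in DNA repair, averaged 4759 ± 471 FPKM in High-Low and 5191 ± 844 FPKM in 2×Trp livers (SD, n = 3 each). RPS12 had 4410, 4408 and 4431 FPKM in High-Low and 5113, 3987 and 3686 FPKM in 2×Trp livers. The High-Low values of RPS12 were nearly equal and lay inside the range of the 2×Trp values. At the low end of the canonical members, RPS3A averaged 763 ± 30.7 FPKM in High-Low and 755 ± 177 FPKM in 2×Trp livers. RPL27, of the large subunit, averaged 710 ± 75.7 FPKM in High-Low and 741 ± 33.7 FPKM in 2×Trp livers. The lowest canonical member was RPS13, with 446, 454 and 366 FPKM in High-Low and 442, 434 and 367 FPKM in 2×Trp livers. Replicate 3 was thus the lowest library for RPS13 in each group.

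**Figure D1:**
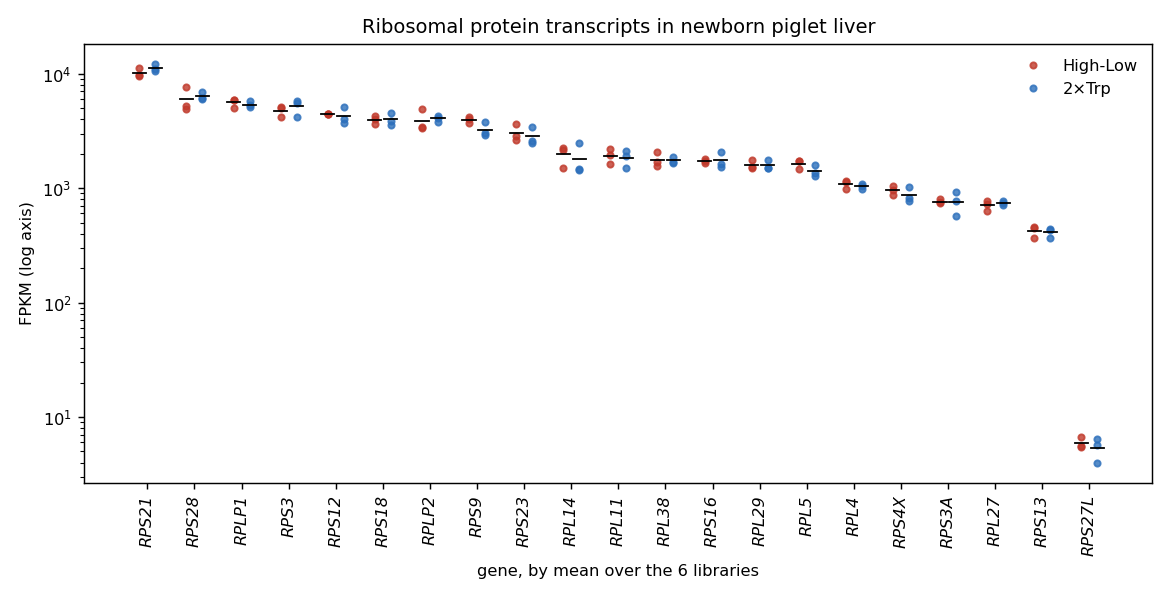
FPKM (log axis) of 21 of the 24 ribosomal protein genes, ordered by their mean over the 6 libraries; points are libraries, High-Low in red left of 2×Trp in blue, and bars are group means (n = 3 each). The groups overlap for every gene shown, RPS21 is highest with a mean of 10719 FPKM over all libraries, and RPS27L stands far below the others at 5.62 FPKM.

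RPS27L, a paralog of RPS27 that p53 induces in human cells, was the member nearest to the filter of 1 FPKM. It had 6.63, 5.55 and 5.51 FPKM in High-Low and 3.99, 6.38 and 5.65 FPKM in 2×Trp livers, and the next member above it was RPS13. On the other side of the filter was RPL10L, a copy of the X-linked RPL10 that is expressed mainly in testis in other mammals. RPL10L, at 196774308 to 196774952 on the minus strand of chromosome 1, was listed at 0 throughout, and an exact 0 in such values can be a failed estimate.

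The 23 canonical members spanned a 25.6-fold range of mean FPKM. FAU also encodes a canonical small subunit protein, but the symbol rule leaves it out. It averaged 30.1 FPKM over all libraries, at a listed length of 3543 bases, and does not enter these values. The level of the members followed the length listed by the authors. The 11 canonical members listed at 210 bases or less had a median of 3976 FPKM (1527 to 10719). The 12 listed above that had a median of 1027 FPKM (418 to 5490). The lower end of the short group depends on this cut, since RPL27, listed at 211 bases, averaged 726 FPKM. Spearman's rho between listed length and mean FPKM was -0.75 over these 23 genes, against -0.22 over all genes tested, where genes are not independent and the length enters both quantities. Many listed lengths are far shorter than a mature mRNA, such as 72 bases for RPS21 and 203 bases for RPL5. With mean FPKM multiplied by listed kilobases, the range over the 23 genes was 111 to 1400, or 12.6-fold, and rho with length was 0.014. RPLP1 then stood first at 1400, and RPL29 had 1203 and RPS21 had 772. RPS13 remained lowest of the canonical members at 111, and RPS27L had 23.3. Levels of different members are therefore comparable only as far as the listed lengths are right, whereas values of the same gene in different libraries share that length.

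**Figure D2:**
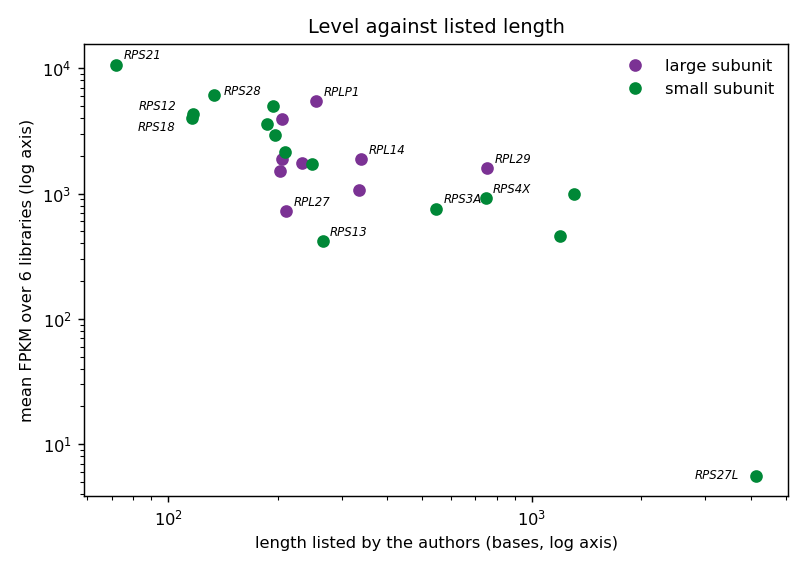
Mean FPKM over the 6 libraries (log axis) against the length in bases listed by the authors (log axis) for the 24 genes, large subunit in purple and small subunit in green. Genes with short listed lengths, such as RPS21 at 72 bases, have the highest FPKM, and RPS27L, at 4145 bases, has the lowest.

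None of the 24 genes passed the test between the diets. In limma with Benjamini-Hochberg adjustment over all 10901 genes, 0 members were higher and 0 were lower in High-Low livers, where 0.00917% of all genes tested were called higher and 0% lower. Also at an unadjusted p under 0.05 there were 0 members, beside 3.16% of all genes, and the smallest unadjusted p of a member was 0.135. High-Low and 2×Trp values overlapped for each of the 24, while 7.18% of all genes had groups that did not overlap. Fold changes of the members ran from -0.14 to 0.30 on the log2(FPKM + 1) scale. Their median was 0.034, beside -0.0038 over all genes tested. The sign was positive for 16 and negative for 8 members, and 49.5% of all genes were positive. This majority turned without 2×Trp replicate 3 (10 positive, median -0.033) and without High-Low replicate 2 (10 positive, median -0.031).

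The 95% interval of the log2 fold change lay within 1 unit of 0, that is within a 2-fold change, for 24 of 24 members and for 69.7% of all genes tested. It lay within 0.5 units for 11 members and for 4.6% of all genes. The lowest bound was -0.62, for RPS28, and the highest was 0.81, for RPL14.

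**Figure D3:**
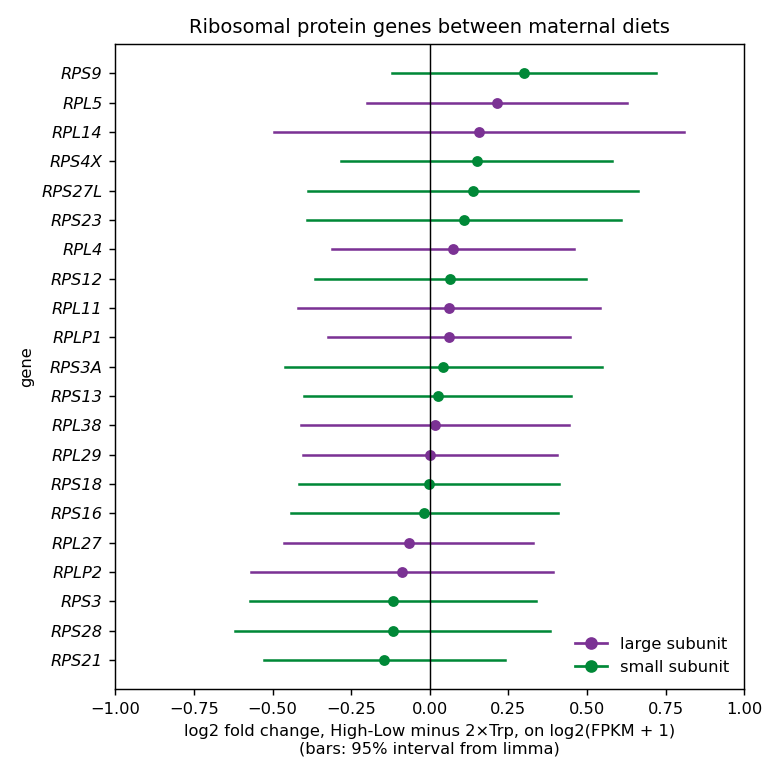
Log2 fold change on log2(FPKM + 1), High-Low minus 2×Trp, for 21 of the 24 genes; bars are 95% intervals from limma (n = 3 each), large subunit in purple and small subunit in green. Every interval shown includes 0 and stays between -0.62 and 0.81.

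On the positive side, RPS9 had the largest log2 fold change, 0.30 (SE 0.18, limma adjusted p = 0.998). RPS9, a small subunit protein at the mRNA entry site, had 4179, 4035 and 3700 FPKM in High-Low and 3788, 2910 and 3033 FPKM in 2×Trp livers. The groups overlapped only through High-Low 3, which was below 2×Trp 1. RPL5 followed, with 1724, 1475 and 1715 FPKM in High-Low and 1600, 1365 and 1279 FPKM in 2×Trp livers, a log2 fold change of 0.21 (SE 0.18, limma adjusted p = 0.998). RPL5 and RPL11 bind the 5S ribosomal RNA together, and free of the ribosome they hold back MDM2, the protein that degrades p53. RPL11 had 1630, 2181 and 1928 FPKM in High-Low and 2107, 1895 and 1513 FPKM in 2×Trp livers. High-Low 2 was the highest library for RPL11 but the lowest High-Low library for RPL5, while the 2×Trp libraries stood in the same order for each gene and 2×Trp 3 was the lowest of all. RPS4X, whose human counterpart has a sister gene on the Y chromosome, had 959 ± 85.2 FPKM in High-Low and 869 ± 129 FPKM in 2×Trp livers (SD, n = 3 each). RPS23, which sits at the decoding centre, had 3049 ± 542 FPKM in High-Low and 2830 ± 508 FPKM in 2×Trp livers. RPS27L averaged 5.90 ± 0.637 FPKM in High-Low and 5.34 ± 1.22 FPKM in 2×Trp livers.

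RPL14 varied most between replicate libraries. It had 1507, 2253 and 2169 FPKM in High-Low and 2490, 1478 and 1447 FPKM in 2×Trp livers, so that each group held low and high libraries and 2×Trp 1 was 1.72 times 2×Trp 3. The log2 fold change of RPL14 was 0.16 (95% interval -0.50 to 0.81).

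On the negative side, RPS21 had the largest log2 fold change, -0.14 (SE 0.16, limma adjusted p = 0.998), with means of 10184 ± 825 FPKM in High-Low and 11254 ± 817 FPKM in 2×Trp livers (SD, n = 3 each). RPS3 and RPS28 had log2 fold changes of -0.12 each, RPLP2 of -0.09 and RPL27 of -0.07. The remaining genes were of either sign, with log2 fold changes of 0.015 for RPL38, 0.074 for RPL4, -0.0038 for RPS18 and -0.018 for RPS16. RPL38, which mouse embryos need for the translation of Hox mRNAs, had 1776 ± 269 FPKM in High-Low and 1748 ± 123 FPKM in 2×Trp livers. RPL4, which lines the tunnel through which the new protein leaves, had 1091 ± 95.4 FPKM in High-Low and 1035 ± 54.3 FPKM in 2×Trp livers. RPS18 averaged 3977 ± 313 FPKM in High-Low and 4000 ± 511 FPKM in 2×Trp livers. RPS16 averaged 1714 ± 65.7 FPKM in High-Low and 1749 ± 284 FPKM in 2×Trp livers. RPL29 averaged 1594 ± 146 FPKM in High-Low and 1593 ± 161 FPKM in 2×Trp livers. RPL29 was the closest to equality, with a log2 fold change of 0.0021.

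By subunit, the 9 large subunit genes had a median log2 fold change of 0.060 (7 positive, 2 negative), and the 15 small subunit genes a median of 0.025 (9 positive, 6 negative). Neither subunit had a member past the threshold in limma.

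Ribosomal protein genes varied little between replicate libraries. The SD of log2(FPKM + 1) within groups had a median of 0.17 over the members and of 0.32 over all genes tested. It lay below that overall median for 23 of the 24, with RPL14 the exception at 0.39. Over the 320 genes with a mean at least as high as that of RPS13, the median SD was 0.31, and the same 23 members lay below it. The smallest spreads were those of RPL4 at 0.106, RPLP1 and RPS21 at 0.109 each, and RPL27 at 0.12. From the lowest to the highest of the 6 libraries, a member changed by a factor of 1.17 to 1.72, with a median of 1.36. Low spread was not particular to the members among the lists described below. The median SD within groups was 0.18 over initiation factors and 0.21 over ribosomal proteins outside the symbol rule. It was 0.22 each over elongation factors and other 5′ terminal oligopyrimidine transcripts, but 0.31 over ribosome biogenesis and 0.32 over mTOR signalling genes.

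**Figure D4:**
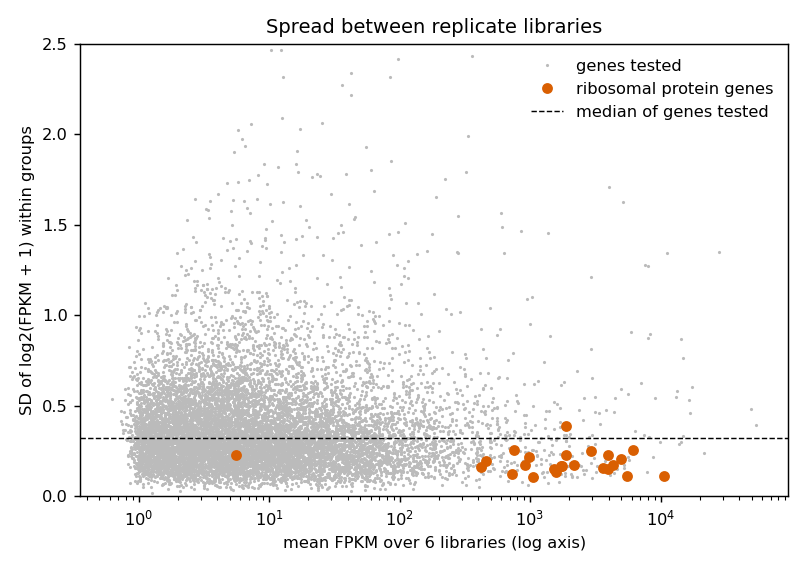
SD of log2(FPKM + 1) within groups against mean FPKM over the 6 libraries (log axis), for the 10901 genes tested in grey and the ribosomal protein genes in orange; the dashed line is the median of all genes tested, 0.32, and 27 genes lie above the upper end of the axis at 2.5. Of the orange points, 23 lie below the line and RPL14 lies above it.

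The members were not level across the libraries. Relative to each gene's own mean, the average log2 value of the 24 genes was -0.033, 0.12 and -0.033 in High-Low 1, 2 and 3, against 0.11, -0.041 and -0.12 in 2×Trp 1, 2 and 3. High-Low 2 was the highest for 9 members and 2×Trp 1 for 8, while 2×Trp 3 was the highest for 0 members. Of the 24 members, 12, 18 and 10 stood above their own mean in High-Low 1, 2 and 3, against 21, 9 and 4 in 2×Trp 1, 2 and 3, so that each library held members above and members below. In 2×Trp 1, RPS3A and RPS27L were the farthest below their own means, and each had its lowest value there. RPS3A had 757, 736 and 796 FPKM in High-Low and 569, 922 and 775 FPKM in 2×Trp livers. The median of all genes tested was between -0.018 and 0.026 in the libraries, and the average of the mitochondrial ribosomal proteins between -0.17 and 0.18. Lists described below were not alike in High-Low 2, 2×Trp 1 and 2×Trp 3. Averages there were 0.18, 0.013 and -0.045 for mitochondrial ribosomal proteins and 0.23, 0.18 and -0.017 for ribosomal proteins outside the rule. They were 0.011, 0.18 and -0.14 for elongation factors and 0.054, 0.13 and -0.13 for biogenesis genes. Initiation factors had -0.044, -0.13 and -0.062, and mTOR signalling genes -0.14, 0.018 and 0.047. Other 5′ terminal oligopyrimidine transcripts had -0.053, 0.011 and -0.11. Over the 2435 other genes tested with a listed length under 300 bases, the median was 0.11, -0.065 and 0.017 in High-Low and 0.023, 0.037 and -0.018 in 2×Trp libraries. The part of listed length in the order of the libraries was not tested.

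The order of the libraries also depended on what the sum was set against. The summed FPKM of the members was 61160, 70039 and 60709 in High-Low and 71286, 61997 and 59265 in 2×Trp livers, so High-Low 3 was low. As a share of the FPKM total, High-Low 3 was the highest High-Low library at 6.35%, since its total was the smallest of the 6. High-Low 1 had the lowest High-Low share, at 5.13%, and the mitochondrial sequence took 10.02% of its total. That share was 5.83% in High-Low 2, 6.79% in High-Low 3 and 3.48% to 5.20% in 2×Trp libraries. The part of the mitochondrial share in this order was not tested.

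**Figure D5:**
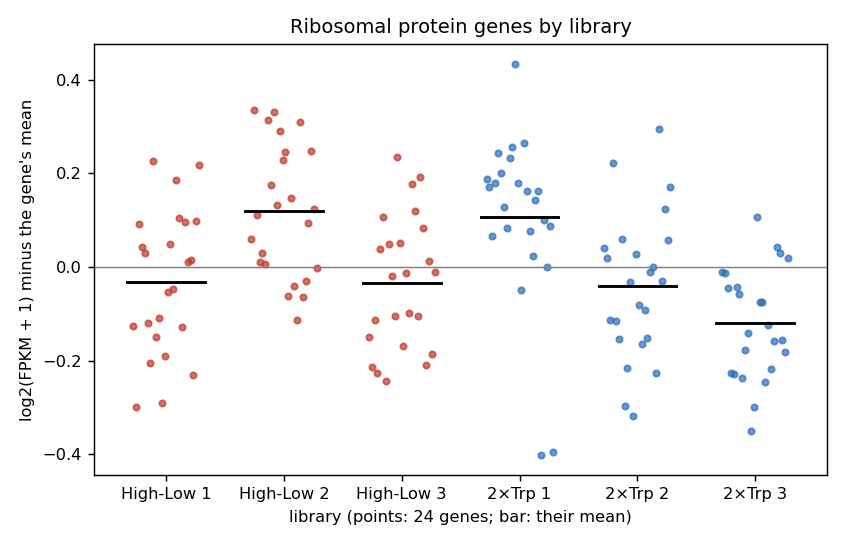
Log2(FPKM + 1) of each of the 24 genes minus that gene's mean over the 6 libraries; points are genes in the same order in each column, High-Low libraries in red left of 2×Trp libraries in blue, and bars are means over the 24 genes. High-Low 2 and 2×Trp 1 are raised, at 0.12 and 0.11, and 2×Trp 3 is lowest, at -0.12.

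The rest of the translation machinery gave values of the same kind, with 0 genes past the threshold in any of the following lists in limma. Of the ribosomal proteins that the symbol rule leaves out, 5 had a row (2 positive, 3 negative, median log2 fold change -0.071). RACK1, a scaffold on the small subunit, had 1790, 2175 and 1714 FPKM in High-Low and 1878, 1677 and 1633 FPKM in 2×Trp livers. That is the level of a canonical member, at a short listed length of 172 bases, and High-Low 2 was again highest. FAU, a fusion of a ubiquitin-like protein with a small subunit protein, had 27.6 ± 4.53 FPKM in High-Low and 32.5 ± 3.17 FPKM in 2×Trp livers (SD, n = 3 each), at a listed length of 3543 bases. RPL36AL had 42.8 ± 10.6 FPKM in High-Low and 48.5 ± 9.44 FPKM in 2×Trp livers. The paralogs RPL26L1 and RPL7L1, named after their values were seen, were lower still. RPL26L1 had 23.4 ± 5.91 FPKM in High-Low and 22.9 ± 2.55 FPKM in 2×Trp livers, and RPL7L1 13.5 ± 2.54 FPKM in High-Low and 14.2 ± 1.75 FPKM in 2×Trp livers.

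Of 3 elongation factors with a row, EEF1B2, which reloads the factor that brings aminoacyl-tRNA, had 1516 ± 162 FPKM in High-Low and 1315 ± 181 FPKM in 2×Trp livers. EEF2, which moves the ribosome along the mRNA, had 1173 ± 120 FPKM in High-Low and 1076 ± 215 FPKM in 2×Trp livers. EEF1D, a further subunit of the same reloading complex as EEF1B2, had 215 ± 39.7 FPKM in High-Low and 239 ± 25.3 FPKM in 2×Trp livers. The median log2 fold change of these 3 was 0.14. Of 27 initiation factor rows tested, 16 were positive and 11 negative (median log2 fold change 0.047). The helicase EIF4A2 had 91.1, 85.6 and 89.4 FPKM in High-Low and 47.0, 101 and 51.1 FPKM in 2×Trp livers. For EIF4A2, 2×Trp 1 and 2×Trp 3 were thus low and 2×Trp 2 was the highest of all. EIF2B4, a subunit of the exchange factor that sets the rate of initiation, had 27.1 ± 2.57 FPKM in High-Low and 34.3 ± 3.57 FPKM in 2×Trp livers (SD, n = 3 each). EIF3L, of the scaffold factor eIF3, had 212 ± 32.8 FPKM in High-Low and 174 ± 27.4 FPKM in 2×Trp livers. The most abundant were EIF1, which guards the choice of the start codon, and the poly(A)-binding protein PABPC1. EIF1 had 286 ± 53.6 FPKM in High-Low and 273 ± 20.8 FPKM in 2×Trp livers, and PABPC1 245 ± 16.4 FPKM in High-Low and 231 ± 21.0 FPKM in 2×Trp livers.

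Other transcripts known to carry a 5′ terminal oligopyrimidine tract, listed with their binding protein LARP1, had 14 rows tested, 10 positive and 4 negative, with a median of 0.13. This list shares EEF1B2, EEF2, EEF1D, PABPC1, EIF3H, EIF3E, RACK1 and FAU with those above. LARP1 had 10.3 ± 3.80 FPKM in High-Low and 7.38 ± 2.34 FPKM in 2×Trp livers, and EIF3H 202 ± 24.1 FPKM in High-Low and 173 ± 14.4 FPKM in 2×Trp livers.

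Genes that build ribosomes had 54 rows tested, 29 positive and 25 negative, with a median of 0.012. MYC, the transcription factor that drives ribosome production, had 50.9, 88.6 and 35.8 FPKM in High-Low and 53.8, 17.2 and 31.5 FPKM in 2×Trp livers. High-Low 2 had the highest MYC and 2×Trp 2 the lowest, and the groups overlapped. BYSL, needed to make the small subunit, had 56.3 ± 7.93 FPKM in High-Low and 44.2 ± 8.69 FPKM in 2×Trp livers (SD, n = 3 each). POLR1H, a subunit of RNA polymerase I, had 6.42 ± 1.06 FPKM in High-Low and 8.61 ± 0.846 FPKM in 2×Trp livers. The most abundant genes of the list were the nucleolar protein NPM1 and POLR2E, a subunit shared by the nuclear RNA polymerases. NPM1 had 237 ± 73.8 FPKM in High-Low and 194 ± 23.9 FPKM in 2×Trp livers, and POLR2E 143 ± 26.6 FPKM in High-Low and 169 ± 7.64 FPKM in 2×Trp livers.

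Genes of mTOR signalling had 23 rows tested, 10 positive and 13 negative, with a median of -0.021. EIF4EBP1, the repressor of cap-dependent translation that mTOR inactivates, had 71.5, 104 and 73.8 FPKM in High-Low and 118, 110 and 96.7 FPKM in 2×Trp livers. The groups overlapped through High-Low 2, and the log2 fold change of -0.40 did not pass (limma adjusted p = 0.998). SESN2, a leucine sensor upstream of mTOR, had 9.28 ± 3.86 FPKM in High-Low and 12.6 ± 2.33 FPKM in 2×Trp livers (SD, n = 3 each). RPS6KB2, a kinase of the small subunit protein RPS6, had 18.6 ± 3.51 FPKM in High-Low and 22.4 ± 0.562 FPKM in 2×Trp livers. LAMTOR1, which anchors mTOR activation at the lysosome, had 62.6 ± 24.8 FPKM in High-Low and 68.7 ± 10.2 FPKM in 2×Trp livers.

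Mitochondrial ribosomal proteins, which serve the separate ribosomes inside mitochondria, had 44 rows tested, 17 positive and 27 negative, with a median of -0.036. MRPS18A had 33.1, 31.5 and 32.7 FPKM in High-Low and 41.3, 37.3 and 39.9 FPKM in 2×Trp livers, and its groups did not overlap. Its log2 fold change of -0.28 did not pass in limma (adjusted p = 0.998). It was 1 row of 44 without overlap, beside 7.18% of all genes tested. The initiation factor, biogenesis and mTOR lists held 2, 3 and 2 such rows. The list of other 5′ terminal oligopyrimidine transcripts held 1, BTF3. MRPL38 had 133 ± 23.5 FPKM in High-Low and 159 ± 3.97 FPKM in 2×Trp livers (SD, n = 3 each). MRPS2 averaged 38.6 ± 14.2 FPKM in High-Low and 47.8 ± 5.70 FPKM in 2×Trp livers, and MRPL28 219 ± 52.2 FPKM in High-Low and 242 ± 27.8 FPKM in 2×Trp livers. The mitochondrial ribosomal proteins had a median level of 26.8 FPKM, beside the 1819 FPKM of the cytosolic ones, which depends on the listed lengths, and a median SD within groups of 0.24 on the log2 scale, beside 0.17.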

How the data were processed

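Liver RNA libraries were made with an Illumina TruSeq kit from 1 ug of total RNA, per the labels' protocols. Bowtie2 2.2.3, TopHat2 2.0.12, HTSeq 0.6.1 and susScr3 are named in the submitters' processing notes; the sources used here do not name the step that made the values, the annotation or the strand setting. The authors deposited FPKM, that is expression per transcript length and sequencing depth, and a length for each of 26733 genes per library. This unit is inferred, since the headers name none: the numbers are not whole, and library totals differ. A ribosomal protein gene shares reads with its processed copies elsewhere in the genome, and how such reads were assigned is not given.

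A table of pig Ensembl identifiers named 11804 of 25322 of them. The 10901 genes at or above 1 FPKM in at least 3 libraries were compared on log2(FPKM + 1), a scale that understates changes of low genes. The fit used limma 3.58.1 in R 4.3.3 (variance trend, robust), adjusted by Benjamini-Hochberg at 0.05. The step was run on simulated data with planted changes larger than that of any member. It therefore does not show whether changes of the members' size would be found. The members and lists were chosen with earlier results of these data known, so lists are described without a test. Members named were the highest and lowest in level, p and spread and a fixed set, and of each list the smallest p and highest level; 3 members enter the counts and medians but are not reported by name here. Figures used matplotlib 3.10.9.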

Additional observations from a re-analysis of the deposited data

How the results depend on the processing

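The count of 0 ribosomal protein genes past the threshold held under the 17 other settings of the fit and the 4 other choices of members tried, with the smallest adjusted p of a member 0.303, for RPL5 with array weights. In limma with array weights, 1 member had an unadjusted p under 0.05 (0.0495), as did 1789 of the 10901 genes tested. Their median log2 fold change ran from -0.033 to 0.097, and the difference in their share of the FPKM total from -0.28 to 0.43 percentage points. These values were smaller in size than the pooled SD of single libraries within groups. That SD was 0.102 for the members' mean log2 value and 0.664 percentage points for the share. Scaling a library cannot change the share. Over all genes, 1 was called lower, in place of 0, with each of the 3 scalings of the libraries (to the same total, or to a total that omits the 20 genes of highest mean or the mitochondrial sequence), with quantile normalization and with array weights; without single replicates 1 to 2 genes were called higher.

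Values of either sign among the members were small. The sign turned for RPS18 with scaling to the same total (0.0094), for RPS18 (0.024) and RPS16 (0.010) without the 20 most abundant genes, for RPS18 (0.060) and RPS16 (0.046) without the mitochondrial sequence, and for RPL38 (-0.020) and RPL29 (-0.0076) with quantile normalization. With array weights it turned for RPS18 (0.090), RPLP1 (-0.035), RPS13 (-0.078), RPL38 (-0.15), RPS16 (0.016) and RPL29 (-0.052). Without single replicates, the log2 fold change ranged from -0.073 to 0.17 for RPL11, -0.13 to 0.020 for RPL27, -0.071 to 0.084 for RPL29, -0.10 to 0.10 for RPL38, -0.27 to 0.011 for RPLP2, -0.032 to 0.20 for RPS12, -0.060 to 0.12 for RPS13, -0.10 to 0.11 for RPS16, -0.081 to 0.096 for RPS18, -0.031 to 0.25 for RPS23, -0.026 to 0.26 for RPS27L, -0.32 to 0.0014 for RPS28 and -0.15 to 0.20 for RPS3A. The cause was not tested.

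Deviations of same-numbered libraries from their group means had correlations of -0.22, -0.01 and 0.03, and those of other pairs -0.13 to 0.12. With 3 libraries per group, such values cannot show whether the numbers pair the samples. With a replicate block the median was 0.034 and 0 members passed. Leaving out members listed over 1000 bases was chosen after seeing the data (median 0.025).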

Other observations

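The summed FPKM of the large subunit genes divided by that of the small subunit genes was 0.458, 0.468 and 0.457 in High-Low 1, 2 and 3, against 0.434, 0.436 and 0.452 in 2×Trp 1, 2 and 3. The groups did not overlap in this ratio, which does not depend on the scaling of a library, but the ratio was chosen after its values were seen and carries no test. Without RPS21, the most abundant small subunit gene, it was 0.598, 0.610 and 0.594 in High-Low and 0.574, 0.585 and 0.611 in 2×Trp libraries, and the groups overlapped.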
